A study of Mus musculus with 34 samples.

Results

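The core genes of the circadian clock were examined in the liver of juvenile C57BL/6 mice with altered thyroid hormone (TH) levels. They were Arntl (also called Bmal1), Clock, Npas2, Per1, Per2, Per3, Cry1, Nr1d1, Nr1d2 and Dbp. A probe was taken for a gene when the RefSeq accession that names the probe on the array belongs to that gene, which gave 16 probes of 10 genes among 41174 non-control probes, of which 23374 could be given a symbol in this way (16535 genes). Each Agilent array compared liver RNA of 1 pup, labelled with Cy5, with a universal mouse reference RNA, labelled with Cy3, and all values are log2 ratios of pup to reference, so a value describes a pup relative to that reference and levels of different probes cannot be set against each other. The 34 pups were all killed at postnatal day (PND) 15. Male pups comprised 4 control, 4 hypo, 5 hyper and 4 hypo+ animals, and female pups comprised 4 control, 5 hypo, 5 hyper and 3 hypo+ animals. Dams of hypo and hypo+ litters drank water with 0.05% methimazole (MMI) and 1% perchlorate, which block TH synthesis, for 3 days, so the pups were exposed through the dam. Hyper pups were injected intraperitoneally with 50 µg T4 and 5 µg T3 per 100 g body weight, hypo+ pups with 20 µg T4 and 2 µg T3 per 100 g, and control and hypo pups with saline, in every case 4 hours before tissue collection. All animals drank water with sucrose and were kept on a light-dark cycle, and the hypo+ group was limited by the study's methods to replaced pups whose serum T4 was near or slightly above that of controls. The clock time at which livers were collected is not given in the sources used here.

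The circadian clock is a feedback loop of transcription. ARNTL pairs with CLOCK or NPAS2 and activates genes that carry E-boxes, among them the Per and Cry genes, whose proteins return to the nucleus and inhibit the same pair. NR1D1 and NR1D2 (REV-ERB alpha and beta) repress Arntl through elements that ROR receptors activate, and DBP, itself an E-box target, activates genes that carry D-boxes. In adult liver the mRNAs of these genes rise and fall each day, Dbp, Nr1d1 and the Per genes nearly opposite in phase to Arntl.

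The arrays had median Cy5 signals of 146 to 199, their negative control spots set a limit of 85 to 105.5, and 60.8% to 79.4% of probes were well above background. Dio1, a deiodinase gene induced by TH, was lower in hypo than in control pups by 1.62 on the log2 scale (SE 0.18, adjusted p = 2.74e-06), and higher in hypo+ than in hypo pups by 1.77 (adjusted p = 2.02e-07). The hepatocyte list stood at a mean log2 ratio of 4.07 to 5.72 in every pup. A list of 8 pancreatic acinar genes, which liver should lack, stood at 0.02 to 0.37 in 30 pups and at 4.25 in control male 832, 3.87 in control male 522, 2.97 in control female 831 and 1.65 in hypo+ female 543. Results below are therefore also given without these 4 pups where this changes a call. The correlations of Per1 and Dbp with genes outside the core clock list were not rerun without them. Erythroid genes (1.21 to 1.77) and lymphocyte genes (-0.48 to -0.03) overlapped between all groups.

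Promoter windows in RefSeq (build GRCm38.p6, 250 bases before to 50 after each annotated start) were listed for 9 of the 10 genes, 13 windows in all, and for all genes but Per2. They were searched on both strands for the E-box CACGTG, the E'-box CACGTT, the D-box (TTATGTAA or TTACGTAA), the ROR/REV-ERB element (the half-site AGGTCA after an A-rich stretch) and the thyroid hormone response element DR4 (2 copies of AGGTCA with 4 bases between them). Of 32851 mouse windows, 7.15% held the E-box, 4.68% the E'-box, 1.06% the D-box, 0.0578% the ROR/REV-ERB element and 0.0152% the DR4 element. Windows of 5 clock genes held a match. The 3 printed here, 5′ to 3′ on the strand of the gene with matches in capitals, belong to the negative-loop gene that was higher in hyper pups (Cry1), to the gene that followed Dbp most closely between female pups (Per3), and to Arntl. The Arntl window (chr7:113207261-113207560, plus strand) holds a ROR/REV-ERB element starting 27 bases into the transcript. The Per3 window (chr4:151044616-151044915, minus strand) holds 2 D-boxes, 205 and 158 bases before the start, and the Cry1 window (chr10:85185005-85185304, minus strand) holds an E-box 60 bases and an E'-box 79 bases before it. The remaining matches were an E-box 166 bases before a Per1 start (chr11:69098699-69098998, plus strand) and an E'-box 28 bases before that of Nr1d1 (chr11:98775328-98775627, minus strand). No window of a clock gene held this exact DR4. At a share of 0.0152% of all windows none was likely among 13. Its absence therefore tells nothing about elements with other letters or farther from the start. A match describes the letters of these windows and is not evidence of binding.
Arntl: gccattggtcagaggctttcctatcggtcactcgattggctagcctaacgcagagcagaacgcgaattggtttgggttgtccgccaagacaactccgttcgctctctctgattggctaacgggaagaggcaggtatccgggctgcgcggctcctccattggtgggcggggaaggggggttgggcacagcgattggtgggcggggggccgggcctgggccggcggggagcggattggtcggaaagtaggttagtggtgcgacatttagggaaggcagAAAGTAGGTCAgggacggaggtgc
Per3: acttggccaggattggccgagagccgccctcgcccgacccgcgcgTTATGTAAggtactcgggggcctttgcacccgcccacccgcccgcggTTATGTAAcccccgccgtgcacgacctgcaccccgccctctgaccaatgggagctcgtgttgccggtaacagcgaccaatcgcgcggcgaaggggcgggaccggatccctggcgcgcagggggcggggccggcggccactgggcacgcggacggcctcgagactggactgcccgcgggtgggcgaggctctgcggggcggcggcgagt
Cry1: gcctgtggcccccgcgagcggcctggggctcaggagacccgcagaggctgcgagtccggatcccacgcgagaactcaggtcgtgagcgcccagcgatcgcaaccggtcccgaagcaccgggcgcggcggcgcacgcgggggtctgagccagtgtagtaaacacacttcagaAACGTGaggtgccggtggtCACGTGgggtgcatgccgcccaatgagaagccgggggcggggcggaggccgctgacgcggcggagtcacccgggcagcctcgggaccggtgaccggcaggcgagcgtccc

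All 16 probes were measured above the negative control limit on at least 33 of 34 arrays. Npas2 was the dimmest (mean Cy5 signal 110, well above background on 25 arrays), followed by a Clock probe, A_52_P161365 (116, on 31 arrays), and a Cry1 probe, A_52_P420500 (123, on 29 arrays), and Dbp was the brightest (4340). Within treatment groups of a sex, the spread between pups was largest for Per1, with an SD of 0.43, then for Nr1d2 (0.36) and Per2 probe A_51_P282760 (0.32), against a median SD of 0.14 for the 26591 probes above the limit on all arrays. It was smallest for Npas2 (0.08). Probes of the same gene did not always move together. Over the 34 pups, deviations of the 2 Per2 probes from their group means had a correlation of -0.13. Those of Nr1d1 probes A_51_P223776 and A_52_P130961 had -0.14, and those of the 2 Cry1 probes had 0.40 (-0.01 in males and 0.68 in females). Nr1d1 probe A_51_P223776 varied with Nr1d2 (0.67) and with Dbp (0.51). Each probe is therefore reported on its own.

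No clock-gene probe passed an adjusted p of 0.05 (limma) in either sex taken alone. In males, the share of all probes that passed was 0.0971% in hypo versus control, 0.0753% in hyper versus control, 0.0267% in hypo+ versus control and 0.369% in hypo+ versus hypo. In females the corresponding shares were 0.155%, 0.158%, 0.0219% and 0.556%. Unadjusted p-values were below 0.05 for 2 clock-gene probes in hyper males (all probes 2.97%), 1 in hypo+ versus control males (7.56%) and 2 in hypo+ versus hypo males (9.18%). In females they were below 0.05 for 3 probes in hyper (6.16%), 1 in hypo+ versus control (4.79%) and 1 in hypo+ versus hypo (7.76%), and for none in hypo pups of either sex (5.2% and 4.72%). When the male and female changes were averaged in 1 fit of all pups, 1 of 16 probes passed in hyper versus control (Cry1; all probes 0.692%) and 1 in hypo+ versus hypo (Dbp; all probes 2.72%). None passed in hypo versus control (0.95%) or in hypo+ versus control (0.585%). Unadjusted p-values were below 0.05 for 1 probe in hypo (Per2; all probes 7.85%), 3 in hyper (6.44%), 1 in hypo+ versus control (Dbp; 10.1%) and 1 in hypo+ versus hypo (12.9%). The median change of the 16 probes lay between -0.043 and 0.034 on the log2 scale in these 4 averaged comparisons. No clock-gene probe had an adjusted or unadjusted p below 0.05 for a difference between the sexes, a test that no probe on the array passed after adjustment (0% in each of the 4 comparisons, and 1.3%, 1.54%, 1.59% and 2.39% at an unadjusted p below 0.05). The comparisons share the control or the hypo pups and are not independent of each other.

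**Figure D1:**
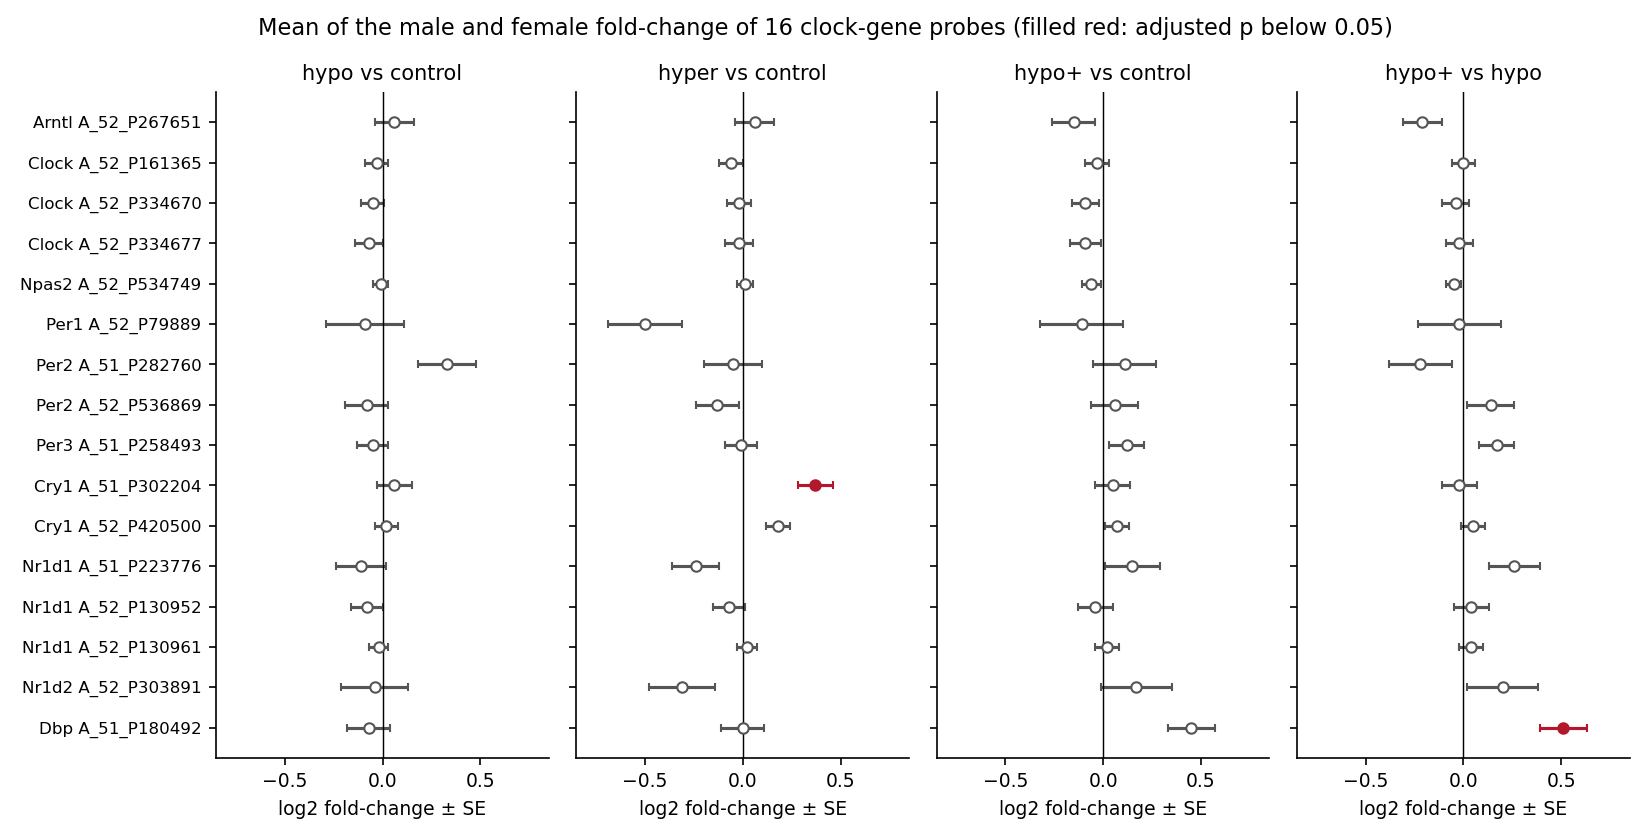
Log2 fold-change (points) and SE (bars) of each of the 16 clock-gene probes, averaged over males and females, in 4 comparisons. Cry1 probe A_51_P302204 in hyper pups (0.37) and Dbp in hypo+ versus hypo pups (0.51) had an adjusted p below 0.05 and are filled.

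Dbp, the D-box activator that serves as an output of the clock, had the highest levels in hypo+ pups of both sexes. Among males, log2 ratios were -0.64, -0.50, -0.22 and -0.05 in hypo+ pups and -1.14, -1.06, -0.81 and -0.66 in hypo pups, so that these groups did not overlap (all probes 4.61%). Control males were at -1.10, -0.83, -0.82 and -0.54, and hyper males lay between -1.0 and -0.40 with a median of -0.88. Hypo+ males thus overlapped control males in 1 pup only from each side, and the hyper and control ranges were nearly the same. Among females, hypo+ pups were at -0.60, -0.37 and -0.12 and hypo pups at -0.99, -0.98, -0.83, -0.72 and -0.57. Control females were at -1.06, -0.92 and -0.92, with pup 394 apart at -0.23, and hyper females lay between -0.94 and -0.55. Averaged over the sexes, Dbp was 1.42-fold higher in hypo+ than in hypo pups (log2 0.51, SE 0.12, adjusted p = 0.0113) and 1.37-fold higher than in control pups (log2 0.45, SE 0.12, adjusted p = 0.0831). Against control it was at -0.07 (SE 0.11) in hypo and at 0.00 (SE 0.11) in hyper pups.

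The difference in Dbp between hypo+ and hypo remained called without the 4 pups high in acinar genes (log2 0.57, adjusted p = 0.0116). Without hypo+ female 601 it was 0.45 (adjusted p = 0.0661), and without control female 394 the difference between hypo+ and control became 0.54 (adjusted p = 0.0171). With slide as a fixed block the difference between hypo+ and hypo was 0.43 (adjusted p = 0.182). With arrays centred on their median in place of loess it was 0.38 (adjusted p = 0.892). Within slides, Dbp was higher in hypo+ than in control pups on all 5 slides that held both (0.32 to 0.61), and higher than in hypo pups on 3 of 4 slides (-0.03 to 0.64). Hypo+ male 363 and hypo+ female 601 were the only pups on their slide. They therefore carry no comparison of treatments within a slide, which the fixed block rests on.

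**Figure D2:**
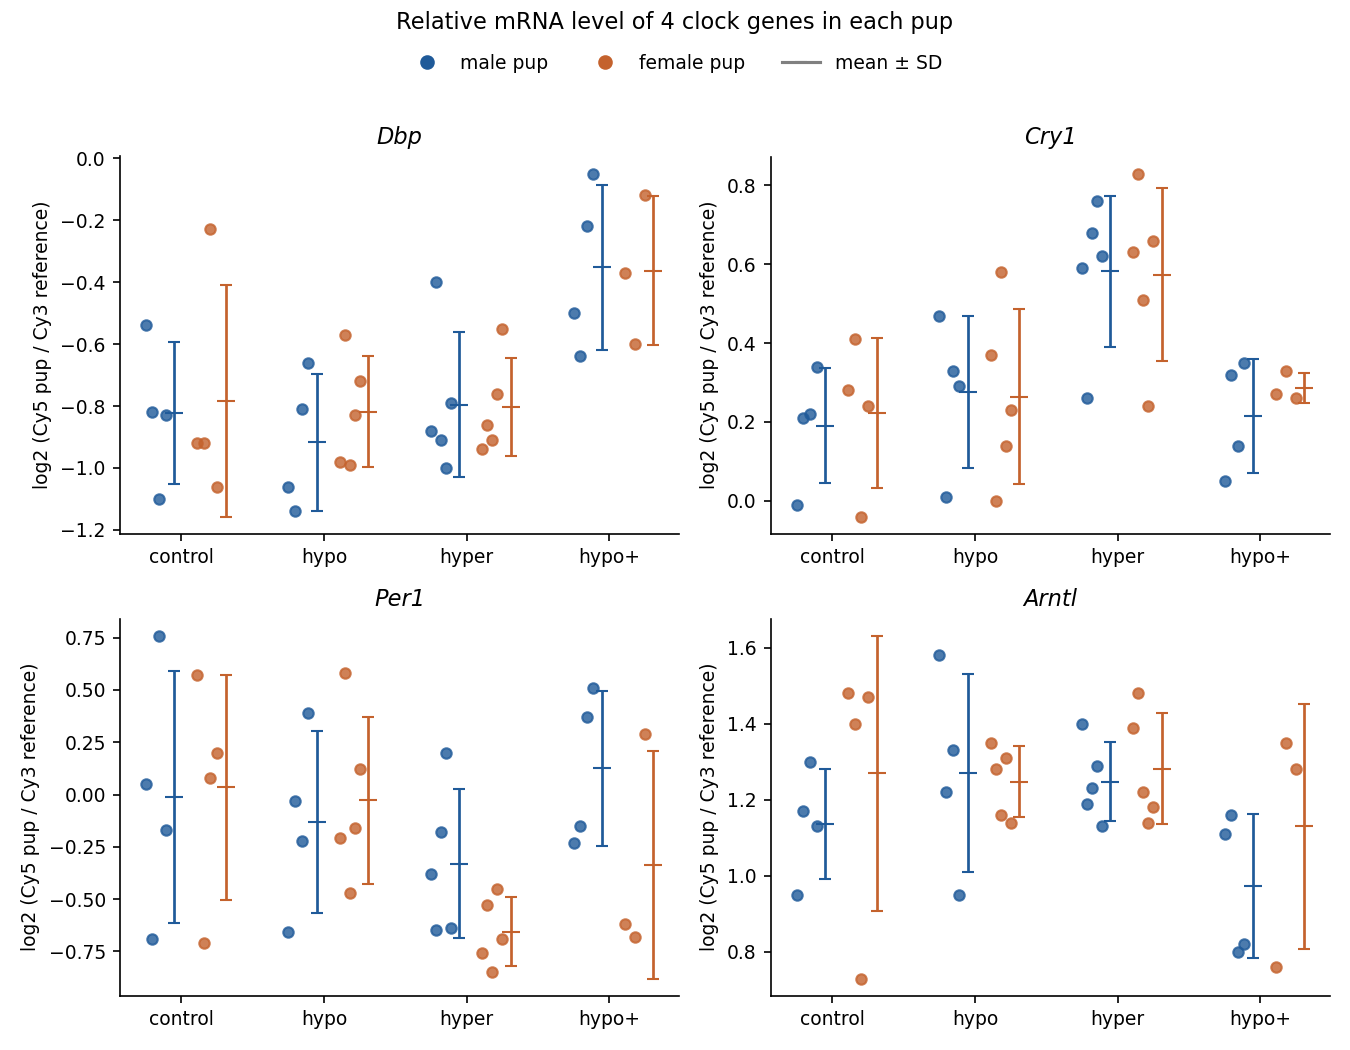
Log2 ratio of pup to reference of Dbp, Cry1 (probe A_51_P302204), Per1 and Arntl in each pup (points) of the 4 treatments, males and females apart, with the group mean and SD. Dbp is highest in hypo+ and Cry1 in hyper pups of both sexes, and control female 394 is the lowest Arntl value and the highest Dbp value of the control pups.

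Cry1, which encodes an inhibitor of the ARNTL and CLOCK pair, was higher in hyper than in control pups. With probe A_51_P302204, control males were at -0.01, 0.21, 0.22 and 0.34 and hyper males at 0.26, 0.59, 0.62, 0.68 and 0.76. Control females were at -0.04, 0.24, 0.28 and 0.41 and hyper females at 0.24, 0.51, 0.63, 0.66 and 0.83. In each sex a single hyper pup, male 784 and female 861, fell within the control range. The averaged change was 1.29-fold (log2 0.37, SE 0.09, adjusted p = 0.0306), and in hypo+ pups it was 0.05 (SE 0.09) against control. The dim probe A_52_P420500 was at 0.17 to 0.28 in control males and at 0.29 to 0.47 in hyper males, which did not overlap (all probes 1.27%), and its averaged change of 0.18 (SE 0.06) had an adjusted p of 0.255. On all 8 slides that held pups of both groups, hyper exceeded control with A_51_P302204 (0.05 to 0.60, median 0.42) and with A_52_P420500 (0.01 to 0.38, median 0.25). Between pups of the same group the 2 probes varied together in females (r = 0.68) and not in males (r = -0.01).

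This call for Cry1 stood close to the threshold. Without the 4 acinar-high pups the change was 0.42 (adjusted p = 0.103), with normexp background correction 0.27 (adjusted p = 0.438), with median centring 0.34 (adjusted p = 1) and with the Cy5 channel alone 0.29 (adjusted p = 0.0998). It was lost when any of 12 single pups was left out, with adjusted p-values between 0.0517 and 0.0986: control males 522, 832 and 881, control females 394 and 882, hyper males 498, 583, 696 and 864, and hyper females 585, 621 and 783. The change without a single pup stayed between 0.33 and 0.42.

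The Per genes encode the partners of the cryptochromes in the inhibiting complex. Per1, which also responds acutely to glucocorticoids, spread widely in most groups. Control females were at -0.71, 0.08, 0.20 and 0.57, and hyper females at -0.85, -0.76, -0.69, -0.53 and -0.45. Hyper males were at -0.65, -0.64, -0.38, -0.18 and 0.20 and control males at -0.69, -0.17, 0.05 and 0.76. The hyper females formed the tightest group (SD 0.17, n = 5) and each lay below all control females but pup 831. The averaged change in hyper pups was -0.50 (SE 0.19, adjusted p = 0.464), so it did not pass the test over all probes. In hypo and hypo+ pups the averaged Per1 change against control was -0.09 (SE 0.20) and -0.11 (SE 0.21). With its 2 probes Per2 gave different values in hypo versus control pups, 0.33 (SE 0.15, adjusted p = 0.559) for A_51_P282760 and -0.08 (SE 0.11) for A_52_P536869. With A_51_P282760, hypo males were at 0.78, 0.90, 0.96 and 1.06 against -0.07, 0.38, 0.82 and 0.94 in control males. The largest averaged difference of Per3 was 0.17 (hypo+ versus hypo, SE 0.09, adjusted p = 0.432).

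The activators Arntl, Clock and Npas2 did not pass in any comparison. Arntl was lower in hypo+ than in hypo males by 0.30 (SE 0.12, adjusted p = 0.406). Hypo+ males were at 0.80, 0.82, 1.11 and 1.16 and hypo males at 0.95, 1.22, 1.33 and 1.58. Hypo+ females were at 0.76, 1.28 and 1.35 and hypo females at 1.14, 1.16, 1.28, 1.31 and 1.35, and the averaged difference was -0.21 (SE 0.10, adjusted p = 0.403). Averaged differences of the 3 Clock probes were no lower than -0.09, and that of Npas2 no lower than -0.06.

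Nr1d1 and Nr1d2 encode the REV-ERB repressors of Arntl, and Nr1d1 lies next to the thyroid hormone receptor gene Thra on the opposite strand. Neither passed in any comparison. Nr1d2 ranged from -0.62 in hyper female 585 to 0.89 in hypo+ female 601, and its averaged change was -0.31 (SE 0.17, adjusted p = 0.877) in hyper and 0.17 (SE 0.18, adjusted p = 0.867) in hypo+ pups against control. Nr1d1 probe A_51_P223776 gave -0.24 (SE 0.12, adjusted p = 0.838) in hyper and 0.26 (SE 0.13, adjusted p = 0.409) in hypo+ versus hypo pups. The other 2 Nr1d1 probes were at 0.02 and -0.07 in hyper and at 0.04 each in hypo+ versus hypo pups.

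Further clock-related genes were read from a list of 19 genes (33 probes). In the average over the sexes, Hlf passed in hypo+ versus hypo. Hlf, which encodes a D-box activator of the same family as DBP, was 1.41-fold higher (log2 0.50, SE 0.11, adjusted p = 0.00878). Hypo+ pups were at 2.84, 3.12, 3.18 and 3.77 in males and at 3.01, 3.45 and 3.66 in females, and hypo pups at 2.63, 2.73, 3.00 and 3.02 in males and at 2.42, 2.66, 2.79, 2.94 and 2.98 in females. The females did not overlap (all probes 5.06%). Hlf lost its call without hypo+ female 601 (0.42, adjusted p = 0.0591), with slide as a fixed block (0.37, adjusted p = 0.17) and with normexp correction (0.45, adjusted p = 0.256). It was also lost with median centring (0.35, adjusted p = 0.892), the Feature Extraction log ratio (0.48, adjusted p = 0.0655) and the Cy5 channel alone (0.45, adjusted p = 0.0681). Unadjusted p-values were below 0.05 in both sexes also for Timeless probe A_51_P437559 (averaged -0.27, SE 0.08, adjusted p = 0.0576) in hypo+ versus hypo and for Usp2 probe A_51_P172663 (averaged -0.39, SE 0.13, adjusted p = 0.252) in hypo versus control. Noct, a deadenylase-like clock output, had opposite values in hypo+ versus hypo males (0.64, SE 0.30, adjusted p = 0.544) and females (-0.69, SE 0.31, adjusted p = 0.611), and the difference between the sexes had an adjusted p of 1. Cry2, the cryptochrome paralogue, was at -0.25 (SE 0.08, adjusted p = 0.253) and -0.13 (SE 0.05, adjusted p = 0.348) with its 2 probes in hyper pups, opposite in sign to Cry1.

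Genes induced by glucocorticoids, which were listed because Per1 is a glucocorticoid target, had 10 probes of 7 genes, so the probe counts repeat some genes. In hyper versus control, 9 of the 10 had lower values (median -0.307), against 52.3% of all probes (median -0.003), and 1 passed (all probes 0.692%), the metallothionein gene Mt2 (log2 -1.59, SE 0.38, adjusted p = 0.0374). In hypo+ versus hypo, again 9 of 10 had lower values (median -0.267), against 53.5% of all probes (median -0.006), and 1 passed (all probes 2.72%), Fkbp5 probe A_51_P383689 (log2 -0.67, SE 0.17, adjusted p = 0.0289). The other 2 Fkbp5 probes were at -0.10 (A_52_P337899, SE 0.18, adjusted p = 0.895) and -0.06 (A_52_P481493, SE 0.22, adjusted p = 0.951) in that comparison. Leaving out single pups ended the call of Mt2 for 10 of 34 pups (adjusted p up to 0.119) and that of Fkbp5 for 6 (up to 0.104), and without the acinar-high pups Mt2 was at -1.25 (adjusted p = 0.402). Both calls were also lost with normexp correction (adjusted p = 0.0947 for Mt2 and 0.0523 for Fkbp5), median centring (0.833 and 0.465) and the Cy5 channel alone (0.0652 and 0.115), and that of Mt2 with slide as a fixed block (0.0832). None of the 5 probes of fasting-induced genes passed in any averaged comparison. Their part in the Per1 values of hyper pups was not tested.

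Clock genes also differed between pups of the same group. The covariation of 45 gene pairs (1 probe per gene, the brightest) was tested on deviations from group means by permuting pups within groups, 100000 times, over 17 pups of each sex. In females, 3 pairs passed after adjustment over the pairs. Per3 followed Dbp (Pearson r = 0.83, permutation p = 0.00036, adjusted p = 0.0162; Spearman rho = 0.82, permutation p = 0.00013), Npas2 followed Arntl (r = 0.74, permutation p = 0.00101, adjusted p = 0.0227; rho = 0.77, permutation p = 0.00081), and Per3 ran opposite to Clock (r = -0.69, permutation p = 0.00329, adjusted p = 0.0493). Unadjusted p-values were below 0.05 for 13 pairs in females and for 5 in males. In males no pair passed. The strongest male pair was Arntl with Dbp (r = -0.71, permutation p = 0.00519, adjusted p = 0.234; rho = -0.74, permutation p = 0.00616), which in females had r = -0.64 (permutation p = 0.0781, adjusted p = 0.195). Nr1d2 with Dbp had r = 0.61 in males and 0.68 in females, and Npas2 with Dbp had -0.57 and -0.74. Nr1d1 (probe A_52_P130961) had r = 0.61 in males and 0.66 in females with Arntl, and -0.36 and -0.41 with Dbp. These signs are opposite to the adult phases given above. Nr1d1 probe A_51_P223776 had -0.58 in males and -0.07 in females with Arntl, and 0.64 and 0.38 with Dbp. The sign was the same in both sexes for 33 of the 45 pairs and for all 15 pairs whose r was beyond 0.5 in females. Leaving out the 2 pups farthest from the median of Per3 changed r to 0.72 for Per3 with Dbp in females. Leaving out the 2 farthest from the median of Arntl changed it to 0.66 for Arntl with Npas2 in females. It stayed at -0.71 for Arntl with Dbp in males. Pups extreme only in the second gene were kept.

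These calls depended on a single pup and on the scaling. Without control female 394 no female pair passed. Per3 with Dbp was then at 0.77 and Clock with Per3 at -0.72 (permutation p adjusted to 0.134 for each). Arntl with Npas2 was at 0.64 (permutation p adjusted to 0.269) and Arntl with Dbp at -0.22 in these females. With each array centred on its median in place of loess, Arntl with Dbp turned to 0.51 in males. In females, Arntl with Npas2 turned to -0.12 and Clock with Per3 to 0.13. In all, r changed sign under median centring for 26 of 45 pairs in males and 19 in females, and with the Cy5 channel alone for 14 and 5. Npas2 was the dimmest probe. With the Cy5 channel alone, females had r = 0.28 for Arntl with Npas2 (permutation p adjusted to 0.643) and -0.12 for Npas2 with Dbp. With normexp correction, Npas2 with Dbp was at -0.18 in males and -0.75 in females.

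**Figure D3:**
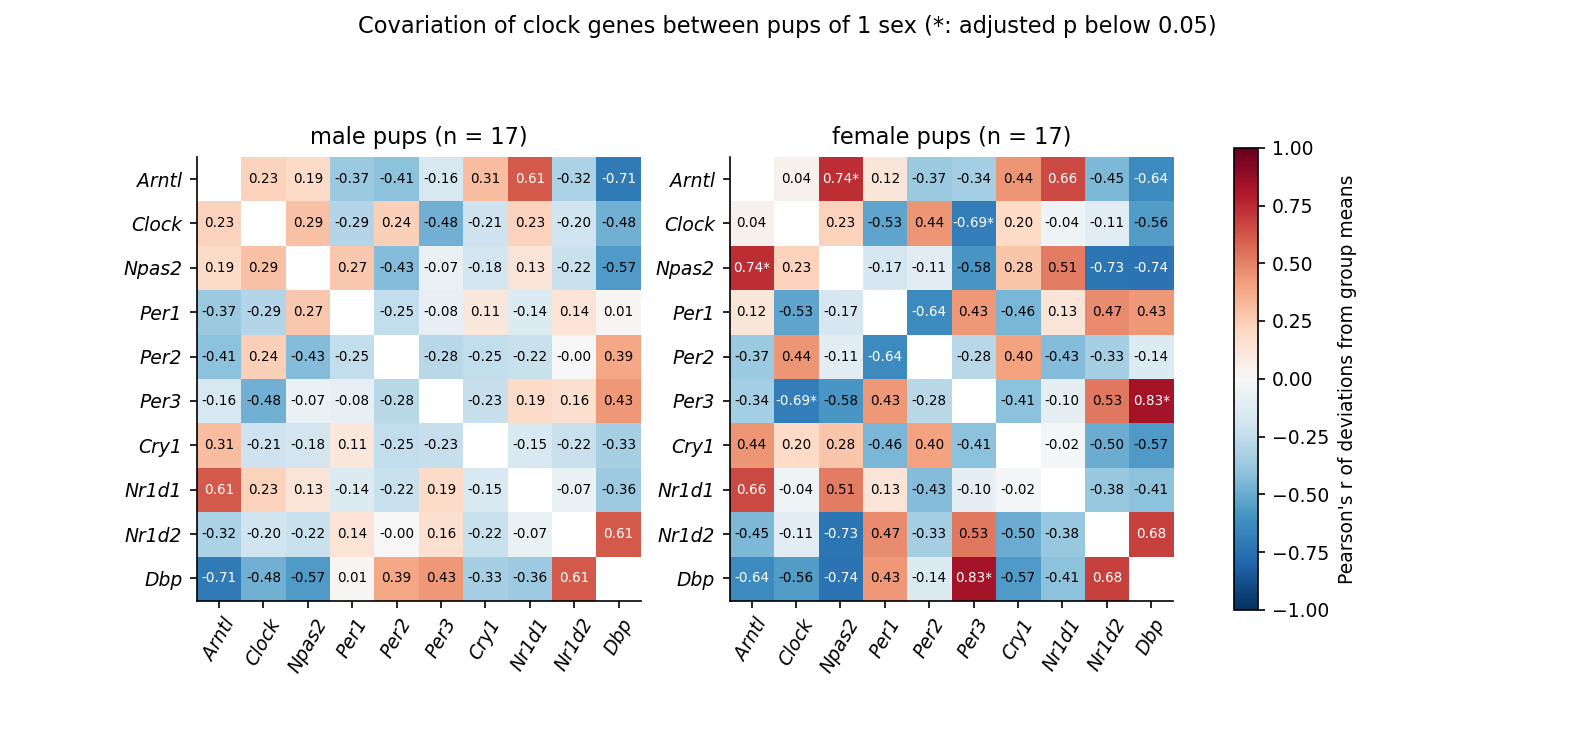
Pearson's r between deviations from group means for each pair of 10 clock genes in 17 male and 17 female pups, coloured from -1 (blue) to 1 (red). Dbp has negative r with Arntl, Clock and Npas2 and positive r with Nr1d2 and Per3 in both sexes (under median centring Arntl turned to 0.51 in males and Clock to 0.67 and 0.55, and with the Cy5 channel alone Per3 to -0.13 in males), and the 3 pairs with an adjusted p below 0.05, all in females, carry an asterisk.

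Control female 394 stood apart from the other control females for several clock genes. Its Arntl value of 0.73 was the lowest of all 34 pups, against 1.40 to 1.48 in the other 3, and its Cry1 value of -0.04 was also the lowest of 34 (others 0.24 to 0.41). Npas2 was at 0.08 (others 0.27 to 0.30) and Nr1d1 probe A_52_P130961 at 0.18 (others 0.45 to 0.51). Each gene is given here by its brightest probe alone. Over the 34 pups, deviations of Nr1d1 probe A_51_P223776 had a correlation of -0.14 with those of A_52_P130961. The values of Dbp (-0.23, others -1.06 to -0.92), Per3 (0.46, others 0.03 to 0.05) and Nr1d2 (0.74, others -0.39 to 0.40) were higher. Arntl, Npas2, Per3 and Dbp each exceeded Dixon's limit in this pup. Its acinar level was 0.15, within the range of the other pups, and the male of the same number prefix, control male 391, was at 1.13 for Arntl and -0.83 for Dbp, within the range of its group.

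**Figure D4:**
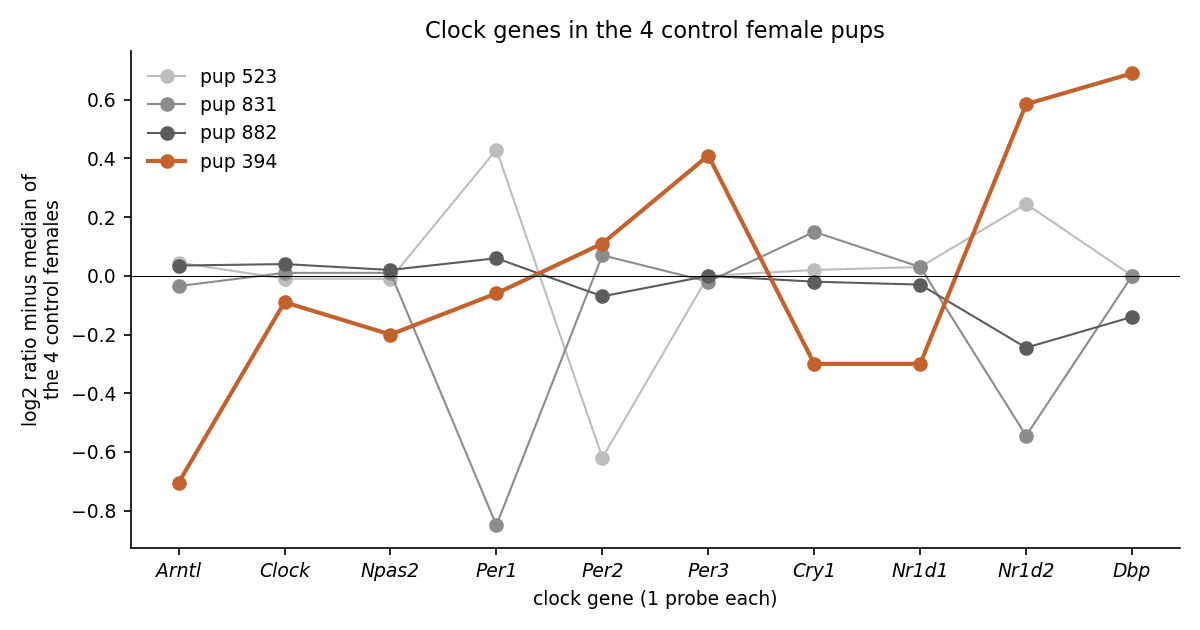
Log2 ratio of 10 clock genes in each of the 4 control female pups, minus the median of the 4. Pup 394 is below the others for Arntl, Npas2, Cry1 and Nr1d1 and above them for Per3, Nr1d2 and Dbp. It is narrowly below them for Clock (log2 ratio -0.02, lowest of the others 0.06). For Per2 it is narrowly above them (0.85, highest of the others 0.81), and pup 831 is the lowest for Per1.

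Pup numbers that share their first digits and treatment may mark litter mates, which the labels do not state. Over 14 such pairs of a male and a female, never on the same slide and in 3 cases of the same scan batch, Per1 deviated in the same direction in 11. Deviations were taken from the mean of the paired pups of each sex and treatment. The hypo+ pairs 546 with 543 (-0.3 and -0.03) and 761 with 763 (0.3 and 0.03) therefore mirror each other. Both are among the 11 and do not count separately. The correlation of Per1 was 0.83 (exact permutation p = 0.0094, adjusted over 10 genes 0.094, and rho = 0.67, exact permutation p = 0.0197). Male and female deviations were -0.67 and -0.74 in the control pair 832 and 831, 0.77 and 0.53 in the control pair 522 and 523, 0.52 and 0.56 in the hypo pair 723 and 721, and -0.53 and -0.49 in the hypo pair 891 and 893. Without the 2 pairs whose male was farthest from the median of the males the correlation was 0.66. Both control pairs named here include pups high in acinar genes, and without such pairs it was 0.74 (exact permutation p adjusted to 0.362). Per2 (0.55, exact permutation p = 0.0488) and Per3 (0.55, exact permutation p = 0.0882) did not pass after adjustment (0.244 and 0.294), and Arntl (0.07), Dbp (0.28) and Cry1 (-0.03) had lower correlations.

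**Figure D5:**
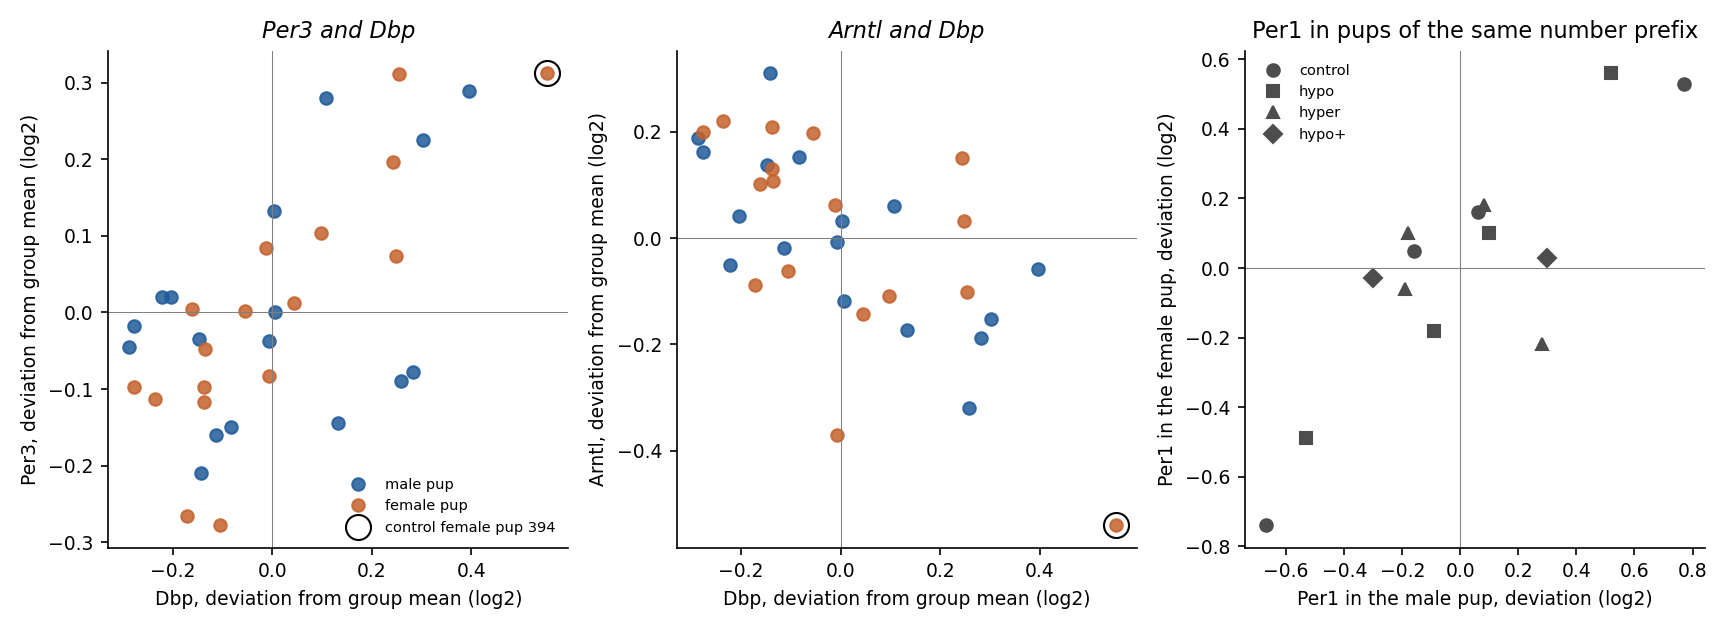
Deviations from group means (log2) of Per3 and of Arntl against Dbp in 34 pups, with control female 394 circled, and of Per1 in the female against the male of 14 pairs of pups with the same number prefix. Per3 has positive and Arntl negative correlation with Dbp, and 4 pairs with Per1 deviations beyond 0.45 in both pups lie near the diagonal.

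The named probes most like Per1, the most variable clock gene, were sought among 17914 probes above the negative limit on all arrays. The highest correlations over 34 pups were those of Trib3 (0.80), which encodes a stress-induced pseudokinase, 3 probes of Lpin1 (0.80, 0.80 and 0.79), a phosphatidate phosphatase and coactivator gene, and Cebpb (0.78), a transcription factor of the acute response. The lowest were Hes6 (-0.77), Mmab (-0.74), S1pr1, Fahd1 and C2cd2l (-0.73 each). Each had the same sign within males and within females. Because the probes were picked as extremes over these same pups, this is no separate check, and no test was made. Among the 12 glucocorticoid- and fasting-induced genes, a comparison chosen after values were seen, Per1 varied with Fkbp5 probe A_52_P481493, the brightest and not the one called above, in males (r = 0.77, permutation p = 0.00147, adjusted p = 0.0176) and females (r = 0.72, permutation p = 0.00785, adjusted p = 0.0471) and with the lipase inhibitor gene Angptl4 in males (r = 0.74, permutation p = 0.00467, adjusted p = 0.028) and females (r = 0.84, permutation p = 0.00119, adjusted p = 0.0143). With Cdkn1a it passed in males (r = 0.68, permutation p = 0.0101, adjusted p = 0.0405) and had r = 0.01 in females. The male r was 0.46 without the 2 pups farthest from the median of Per1. Tsc22d3 had r = 0.53 in males and -0.43 in females (permutation p adjusted to 0.166 and 0.311). None of the other genes of the 12 passed in either sex. Their r with Per1 ran from -0.36 (Igfbp1) to 0.44 (Sgk1) in males and from 0.07 (Sgk1) to 0.46 (Pdk4) in females. Without the 2 pups farthest from the median of Per1, r in males and females was 0.64 and 0.60 for Fkbp5 and 0.55 and 0.76 for Angptl4. None of the correlations in this paragraph was rerun without the acinar-high pups. Among those pups, Per1 deviated by 0.77 in control male 522, -0.67 in control male 832 and -0.74 in control female 831. Dbp varied with Tef, a gene of its own family, in males (r = 0.62, permutation p = 0.0229) and females (r = 0.75, permutation p = 0.00665), but over 19 genes neither passed (adjusted p = 0.217 and 0.123).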

How the data were processed

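The authors deposited, for each array, Feature Extraction intensity files with the median signal intensity of each spot and channel, a log10 ratio of background-subtracted, dye-normalized signals, and a table of their own log2 ratios, which ran with the loess values below (r of 0.992 to 0.996) and differ in centring. Here the median signals were normalized by loess within arrays without background correction, control and flagged spots were left out, and spots of a probe were averaged. Probes were named through RefSeq accessions (GRCm38.p6 table, 16806 of 33541 systematic names matched). limma 3.58.1 in R 4.3.3 was fitted to the 4 groups of each sex, and to all 34 pups with the number prefix as a random block (consensus correlation 0.071). Benjamini-Hochberg adjustment ran over all 41174 probes, with a threshold of 0.05, and the fit was tested on simulated data. Members, gene lists and tests were chosen with earlier results of these data known. Clock genes were named by the fixed list, other clock-related genes where called or below an unadjusted p of 0.05 in both sexes, and Cry2 after its values were seen. Replicates are separate pups, and the arrays the authors removed are not analysed here. In bulk liver, fewer cells of a type and less RNA per cell cannot be told apart. Precision rests on the number of arrays. A result among the further clock-related genes is not reported here.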

Additional observations from a re-analysis of the deposited data

Results flagged for a closer look

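Single pups far from the rest of their group, by Dixon's gap test at the 95% level, were found in 8 of 112 combinations of probe and group, where chance gives about 1 in 20. Control female 394 accounted for 4 of them: Arntl at 0.73, Npas2 at 0.08, Per3 at 0.46 and Dbp at -0.23. The others were control male 522 for Clock probe A_52_P334677 (-0.03, others all at -0.11), hypo+ male 761 for Per2 probe A_52_P536869 (0.67, others 0.86 to 0.89), hypo female 893 for Per3 (-0.19, others 0.08 to 0.18) and control male 391 for Nr1d1 probe A_52_P130952 (0.11, others 0.33 to 0.37). Values of different genes in a pup come from the same array, and what set pup 394 apart was not tested.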

How the results depend on the processing

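Counts of clock-gene probes called were the same as reported in both sexes taken alone, in the sex difference and in hypo versus control under every alternative run, and in hypo+ versus control under every alternative except without control female 394. In the average over the sexes, the count in hyper versus control fell from 1 to 0 with normexp correction, median centring, the Cy5 channel alone and without the acinar-high pups, and that in hypo+ versus hypo from 1 to 0 with median centring and with slide as a fixed block. Leaving out each array in turn gave 0 to 1 in hyper versus control, in hypo+ versus control and in hypo+ versus hypo, and 0 in hypo versus control. Under median centring, 19 gene pairs were called in males and 10 in females, and 1 gene, Per1, was called between male and female pups of the same number prefix (r = 0.82). Female pairs called numbered 1 with normexp, 0 with the authors' own values, 0 with the Cy5 channel alone, 1 without the acinar-high pups and 0 without control female 394. Over all 45 pairs, r changed sign in 26 (males) and 19 (females) under median centring and in 14 and 5 with the Cy5 channel alone. Among the pairs followed through every setting, it turned under median centring for Arntl and Npas2 (-0.73 in males, -0.12 in females), Clock and Per3 (0.43 and 0.13), Clock and Dbp (0.67 and 0.55) and, in males, Arntl and Dbp (0.51), and with the Cy5 channel alone for Per3 and Dbp in males (-0.13). The causes were not tested. Pup numbers are unique. No paired analysis by replicate number was possible because no number was shared between groups, and slide and number prefix served as blocks instead. Alternatives that left out the 4 acinar-high pups or pup 394, or used scan batch, and the leave-one-out fits of the average, were chosen after seeing the data. Signals near background limit the Npas2, Clock A_52_P161365 and Cry1 A_52_P420500 values. The called Cry1 probe A_51_P302204 was also rather dim (mean Cy5 signal 179, lowest 136), though well above background on 34 arrays.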
